A study of Mus musculus with 8 samples.

Results

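The set consists of 37 genes of the amino acid response that the transcription factor ATF4 controls, together with the cytosolic aminoacyl-tRNA synthetases. It was defined by gene name, not by measured values, and 35 of the 37 have a probe set that is annotated with that gene alone, out of 12393 genes with such a probe set. Dars and Mars were not analysed here. The brightest probe set of each gene, judged by its mean over the 8 arrays, represents it. All 35 lay above the filter on low expression (a mean log2 value of 6.872), as did 8003 genes in all, with mean log2 expression from 7.89 to 13.48.

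The study measured gene expression in CD8+ cytotoxic T cells of OT-1 mice, whose transgenic T cell receptor recognises a peptide of ovalbumin (OVA), to ask how PD-L1 on a target cell affects the T cell. Activated T cells were taken from 4 mice, called A to D, and the cells of each animal were split between ID8 mouse ovarian cancer cells that overexpress PD-L1 and ID8 cells depleted of PD-L1, all loaded with the OVA peptide, and T cells were recovered by magnetic separation after 4 h at 30 effector cells per target cell. Each mouse thus gave 1 array per target, 8 arrays in all. No array holds T cells without target cells, so the values compare PD-L1-high with PD-L1-low targets and do not show the response to the targets themselves.

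ATF4 is a bZIP transcription factor whose messenger RNA is translated more when translation initiation factor eIF2 is phosphorylated, for example when amino acids run short or unfolded protein accumulates. It raises transcription of genes for amino acid synthesis and uptake, of stress regulators and of many of the synthetases that charge tRNAs with their amino acids. In activated T cells this programme feeds protein and nucleotide synthesis. Because ATF4 is controlled largely at translation, the level of Atf4 mRNA need not follow the activity of the protein, which was not measured.

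ATF4 binds, with a C/EBP partner, to composite sites with the core TGATGNAA. The RefSeq promoters (GRCm38.p6, 250 bases before to 50 after the annotated start) were searched for these letters on both strands, and 28 of the 35 measured members had a promoter in the table. The core was found in 10 of the 28 (35.7%), against 1219 of 27025 genes (4.51%) in the whole table. It occurred in 4 of 11 regulators and stress genes, 1 of 6 amino acid and one-carbon enzymes, and 5 of the 11 synthetases with a promoter. Sites of 9 of these genes are shown because several of the genes that differed most between mice, or had the smallest p between targets, are among them. Each line gives 30 bases in the direction of the gene, 5′ to 3′, with the core or its reverse complement in capitals.
Nupr1, chr7:126625562-126625591, minus strand: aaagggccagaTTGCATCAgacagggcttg
Trib3, chr2:152344028-152344057, minus strand: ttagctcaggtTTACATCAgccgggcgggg
Chac1, chr2:119351038-119351067, plus strand: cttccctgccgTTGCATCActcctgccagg
Vldlr, chr19:27216809-27216838, plus strand: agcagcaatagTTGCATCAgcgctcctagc
Asns, chr6:7693214-7693243, minus strand: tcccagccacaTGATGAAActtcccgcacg
Iars, chr13:49682126-49682155, plus strand: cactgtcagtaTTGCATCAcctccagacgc
Yars, chr4:129189895-129189924, plus strand: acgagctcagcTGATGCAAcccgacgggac
Gars, chr6:55037960-55037989, plus strand: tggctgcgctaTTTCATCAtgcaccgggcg
Tars, chr15:11399655-11399684, minus strand: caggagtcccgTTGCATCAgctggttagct
In Asns and Tars the first base of the core lay 23 and 15 bases before the annotated start, and in Nupr1 and Vldlr it lay 110 and 200 bases before it. In Iars, Trib3 and Yars it lay just after the start, within the transcribed gene. A match describes these letters in this window and does not show binding. The promoter table had no entry for Cars, Hars, Lars, Nars, Rars, Vars and Wars.

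The labelled cell type was borne out by 7 tested T cell markers, whose mean log2 level was between 12.68 and 12.78 on every array. Single T cell markers differed between mice, 5 of the 7 by limma's F test: in mouse A, Cd3d, Cd3g and Cd8a were lower (-0.10, -0.21 and -0.17 relative to the other mice) and Cd2 was higher (0.25). Cd274, which encodes PD-L1 and was altered in the target cells, reads the T cells and any target RNA here, and it differed between targets by -0.042 (SE 0.041). Pairs of arrays correlated between 0.9938 and 0.998 over all probe sets. Markers of the target cells were also read on the arrays. The mean of 12 tested tumour and mesothelial markers (of 25 listed) differed between the targets (overexpressing minus depleted) by 0.68, 0.53 and 0.58 log2 units in mice A, C and D and by -0.87 in mouse B. Of these markers, 12, 9 and 11 were higher with overexpressing targets in mice A, C and D, and 2 in mouse B. Whether this RNA came from target cells was not tested, as no array holds either cell type alone. Of the B cell markers, 4 of 9 with a probe set were tested and all 4 differed between mice. The mean of these, Ighm, Cd74, H2-Aa and H2-Ab1, was 10.02 and 10.05 in mouse A, 11.35 and 11.29 in B, 10.19 and 10.28 in C, and 10.92 and 10.96 in D, while Cd79a, Cd79b, Ms4a1, Blk and Blnk lay under the filter. Of 2 tested macrophage markers, Csf1r did not pass and Cd68 differed between mice, at -0.34 in mouse A and 0.47 in mouse C. In such bulk samples a larger number of cells of a type and more RNA per cell cannot be told apart, and the part of these signals in the differences between mice was not tested.

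Between the targets, the whole set differed very little. None of the 35 members passed limma's test at an adjusted p of 0.05, as none of all 8003 genes did (0% called). The smallest adjusted p of a member was 0.9995, and 2 members, Tars and Vldlr, had an unadjusted p under 0.05, beside 228 of 8003 genes (2.85%). The direction was mostly the same: 29 members had a higher mean with PD-L1-overexpressing targets and 6 a lower one, so 82.9% were higher against 53.4% of all genes tested. The median difference over the members was 0.024 log2 units, against 0.0033 over all genes, and single members ran from -0.022 for Mthfd2 to 0.12 for Vldlr. Scaling bears on this split: it was 34 of 35 higher with arrays centred on their medians and 27 of 35 with quantile normalization. The widest 95% interval, that of Cebpb, reached 0.32 log2 units, so a larger mean difference lay outside the interval of every member. Arrays of 1 mouse come from the same T cells. The p-values rest only partly on the spread between the 4 pairs of a gene, which leaves 3 residual degrees of freedom. The rest comes from the variance that limma borrows from all 8003 genes.

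**Figure D1:**
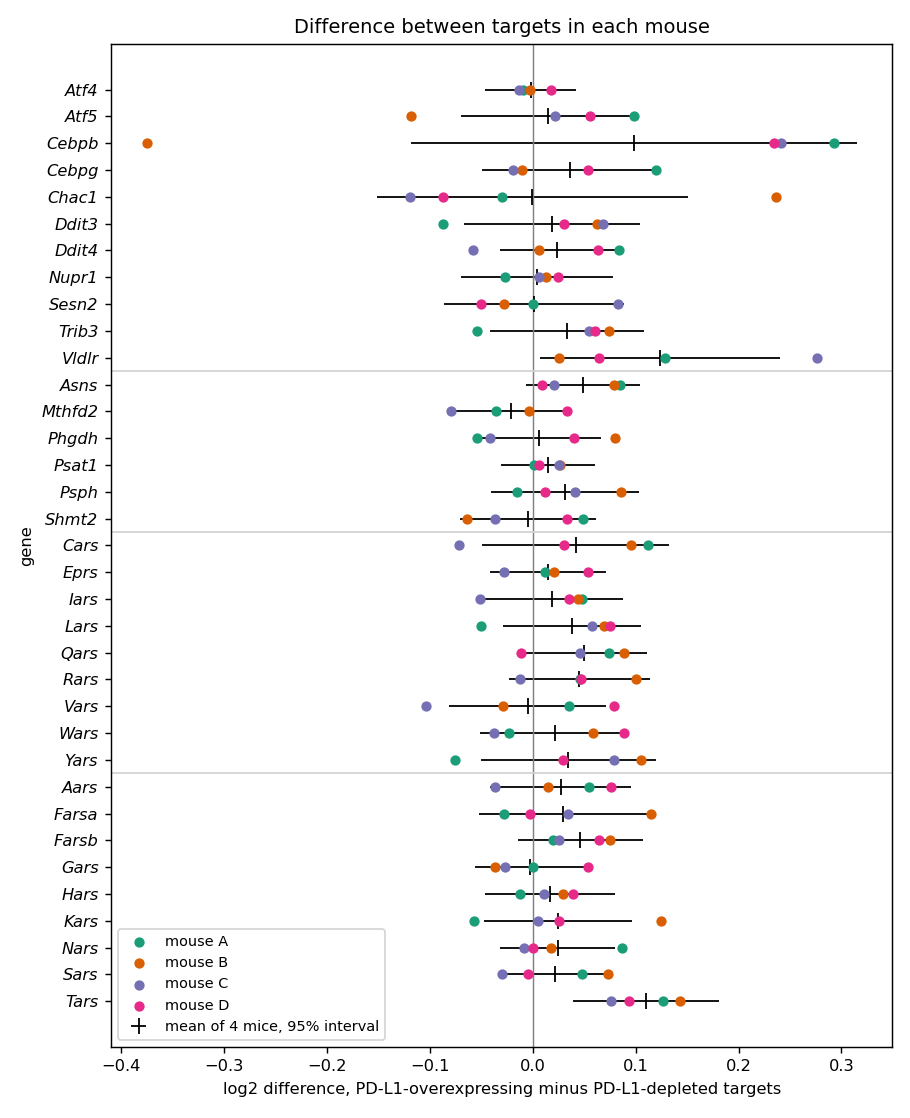
Difference in log2 expression, PD-L1-overexpressing minus depleted targets (horizontal axis), for each of the 35 genes (vertical axis), ordered as regulators and stress genes, enzymes, class I and class II synthetases. Points are the 4 mice, ticks the mean and bars the 95% interval from limma. Most means sit just right of 0, only the intervals of Vldlr and Tars leave out 0, and the points of Cebpb spread from -0.38 in mouse B to 0.29 in mouse A.

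Among the 11 regulators and stress genes, 9 were higher, 2 were lower and the median difference was 0.019. Atf4 itself read 12.74, 12.84, 12.75 and 12.85 in mice A, B, C and D with overexpressing targets and 12.75, 12.84, 12.76 and 12.84 with depleted targets. The 2 arrays of each mouse were nearly level, and the groups overlapped fully. Its mean was 12.80 ± 0.060 against 12.80 ± 0.049 (SD, n = 4 each), a difference of -0.0019 (SE 0.020). A dimmer Atf4 probe set, with a mean of 10.70, gave pair differences of 0.19, -0.45, 0.42 and -0.075 in the 4 mice. The brightest gave -0.0092, -0.003, -0.013 and 0.018. The probe sets of this gene thus differ in the size of the pair differences, and in mice A, C and D also in their sign.

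Ddit3, which encodes the stress factor CHOP, read 9.89, 10.08, 10.02 and 10.21 in mice A to D with overexpressing targets and 9.98, 10.02, 9.95 and 10.18 with depleted targets. The groups overlapped, and mouse A alone was lower with overexpressing targets. Its difference was 0.019 (SE 0.038). Trib3, a pseudokinase that is itself an ATF4 target and restrains ATF4 and CHOP, read 10.46, 10.81, 10.63 and 10.93 against 10.51, 10.73, 10.58 and 10.87. Here too 3 of 4 mice were higher with overexpressing targets, and the mean difference was 0.034 (SE 0.033).

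Vldlr, a lipoprotein receptor induced by ATF4, had the largest difference of the set. It read 9.02, 8.75, 8.45 and 8.43 with overexpressing targets and 8.89, 8.72, 8.17 and 8.36 with depleted targets. Each mouse was higher with overexpressing targets, but mice differed more than targets did and the groups overlapped. A dimmer Vldlr probe set was lower with overexpressing targets in mouse C, at 8.07 against 8.18. Means were 8.66 ± 0.28 and 8.54 ± 0.33 (SD, n = 4), the difference was 0.12 (95% interval 0.0074 to 0.24), and limma's p was 0.0396 before adjustment.

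Cebpb, which encodes a C/EBP factor that can pair with ATF4, is named after its values were seen. It read 10.35, 10.30, 10.37 and 10.59 with overexpressing targets and 10.05, 10.67, 10.13 and 10.35 with depleted targets. Mice A, C and D were higher with overexpressing targets by 0.29, 0.24 and 0.23, and mouse B differed by -0.38, the same split of mice as in the tumour markers. With all 4 mice the difference was 0.098 (SE 0.096). Without mouse B it was 0.26 (SE 0.037, limma's adjusted p 0.000218). Cebpb was then the only called member of 35, beside 176 of 8003 genes (2.2%), which included 8 of the 12 tested tumour markers. With the tumour marker mean of each array as a covariate in all 4 mice the difference was -0.000825 (SE 0.033). A second Cebpb probe set showed the same signs, with 0.17, -0.14, 0.24 and 0.30 in mice A to D. Whether the Cebpb signal came from the T cells or from target cells was not tested.

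**Figure D2:**
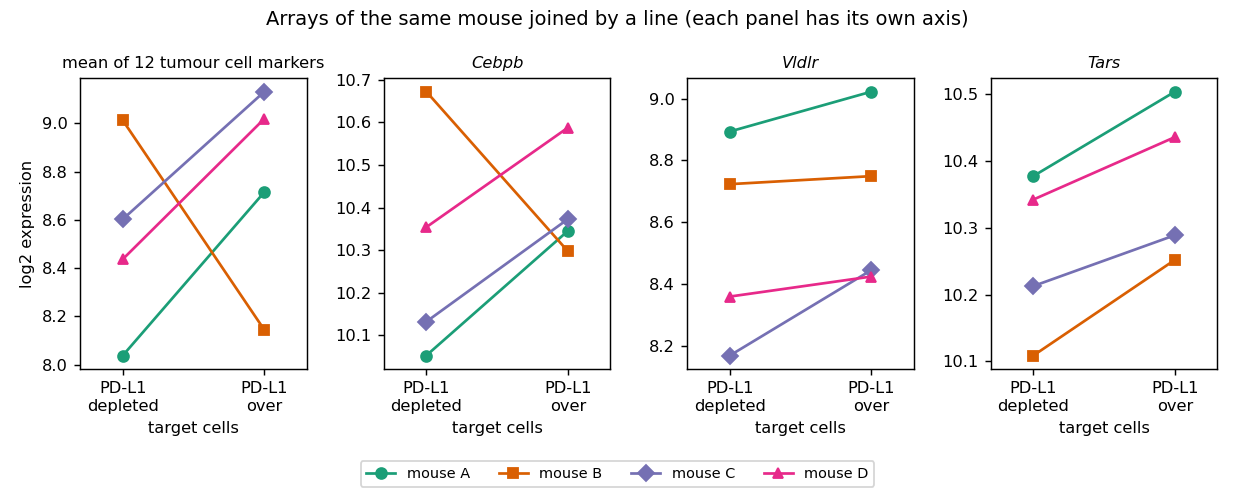
Log2 expression (vertical axes, a scale for each panel) with either kind of target, PD-L1-depleted on the left and overexpressing on the right, as the mean of 12 tumour cell markers and for Cebpb, Vldlr and Tars; lines join the arrays of a mouse. The markers and Cebpb are higher with overexpressing targets in mice A, C and D and lower in mouse B, whereas the lines of Vldlr and Tars slope upward in all 4 mice.

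Of the 6 enzymes of serine, glycine, asparagine and folate metabolism, 4 were higher, 2 were lower and the median difference was 0.010. Asns, asparagine synthetase and a standard ATF4 target, read 12.27, 12.04, 12.12 and 12.20 with overexpressing targets and 12.19, 11.96, 12.10 and 12.19 with depleted targets. It was higher in all 4 mice, by less than the mice differed, and the groups overlapped. Means were 12.16 ± 0.10 and 12.11 ± 0.11 (SD, n = 4), with a difference of 0.049 (SE 0.025) and an unadjusted p of 0.0795 from limma. Psat1, phosphoserine aminotransferase of the serine pathway, read 12.78, 12.50, 12.59 and 12.71 against 12.78, 12.48, 12.57 and 12.70, a difference of 0.015 (SE 0.020). On this probe set the pairs were again nearly level within each mouse. A dimmer Psat1 probe set read 12.24 against 12.11 in mouse A and 11.98 against 12.13 in mouse B. Phgdh, Psph, Shmt2 and Mthfd2, which begin and end serine synthesis and carry its carbon into folates, had differences between -0.022 (Mthfd2) and 0.031 (Psph).

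The synthetases were higher in 16 of 18 cases, 8 of 9 in each structural class, with medians of 0.035 for class I and 0.024 for class II (the bifunctional Eprs is counted in class I). Tars, threonyl-tRNA synthetase, had the smallest p of the set. It read 10.50, 10.25, 10.29 and 10.44 with overexpressing targets and 10.38, 10.11, 10.21 and 10.34 with depleted targets. All 4 mice were higher, by 0.13, 0.14, 0.076 and 0.094, so the pairs differed alike although the groups overlapped. Means were 10.37 ± 0.12 and 10.26 ± 0.12 (SD, n = 4), and the difference was 0.11 (95% interval 0.039 to 0.18), with an unadjusted limma p of 0.0068 and an adjusted p of 0.9995. With the tumour marker covariate its difference was 0.12 (adjusted p 0.669). Qars, glutaminyl-tRNA synthetase, read 11.58, 11.64, 11.63 and 11.56 against 11.50, 11.55, 11.59 and 11.57. Mice A, B and C were higher and mouse D was not, and its difference was 0.049 (SE 0.027). Other Qars probe sets gave -0.068 and 0.022. The lower synthetases were Vars and Gars, at -0.0048 and -0.0024.

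In all, 5 members, Tars, Vldlr, Asns, Psat1 and Farsb, were higher in each of the 4 mice (14.3%, beside 5.84% of all genes), and none was lower in all 4 (beside 4.69%). These counts use the brightest probe set of each gene. Another probe set above the filter was lower with overexpressing targets in mouse C for Vldlr, and in mice B and D for Psat1. For Farsb, a further probe set was lower in mice B and D, and yet another in mouse C. Within single mice the median member difference was 0.012, 0.044, 0.0050 and 0.035 in A, B, C and D, and the median of all genes was 0.0012, 0.028, -0.020 and 0.0049. Members with the promoter core were higher in 8 of 10 cases, with a median of 0.030, and those without it in 15 of 18, with a median of 0.020. Among the 21 genes with more than 1 probe set above the filter, 8 had probe sets that disagreed on the sign between targets.

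The mice differed far more than the targets. In the members, 89.6% of the variance lay between mice and 2.65% between targets, against 74.6% and 4.97% over all genes tested. By limma's F test, 22 of the 35 members (62.9%) differed between mice at an adjusted p of 0.05, beside 29.3% of all genes. Highly expressed genes were called more often, and among genes with a mean of at least 10.33 the shares were 17 of 26 members (65.4%) and 46.1% of all. Called members were 7 of 11 regulators, 5 of 6 enzymes, 4 of 9 class I and 6 of 9 class II synthetases. The differences were small in size: no member spanned more than 2-fold between mice (beside 0.962% of genes), and the median span was 1.17-fold. The T cells of a mouse were divided only for the co-culture, so these p-values measure each mouse against the spread between co-cultures, and the animal, its T cell culture and its handling cannot be told apart. Without mouse A, 11 members differed, beside 7.2% of all genes.

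**Figure D3:**
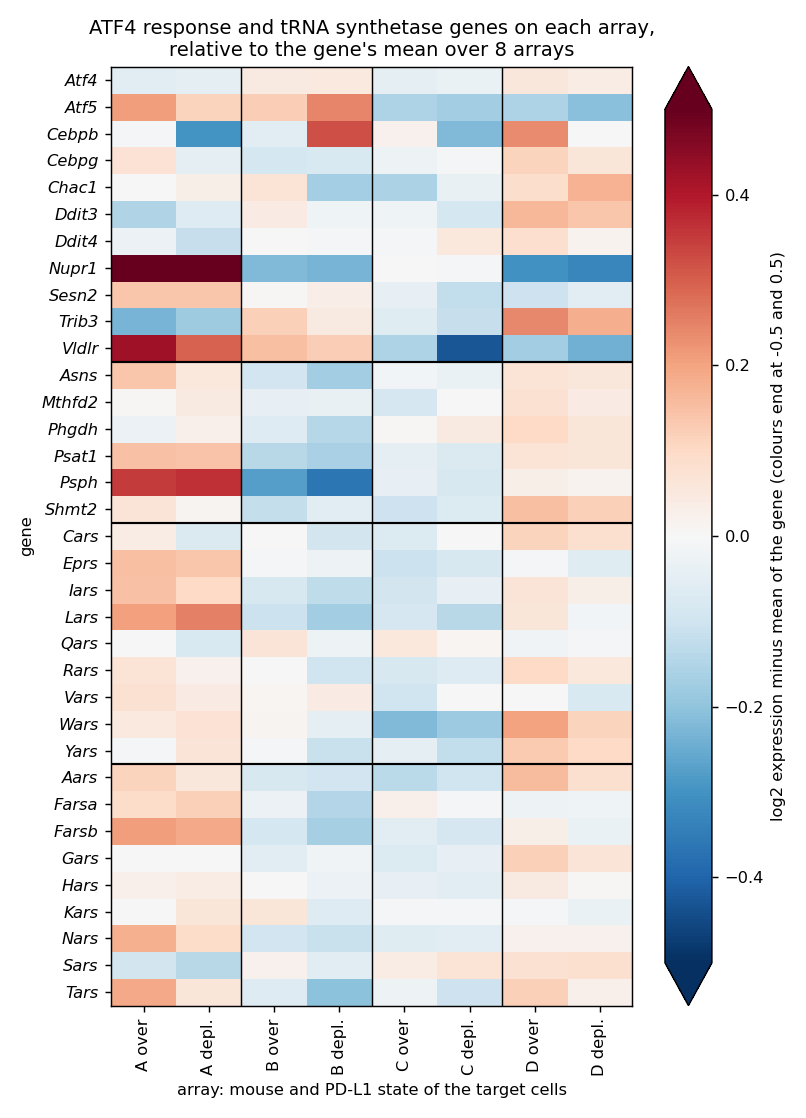
Log2 expression of each of the 35 genes (rows) on each of the 8 arrays (columns), minus the mean of the gene over the arrays; red is higher, blue lower, and horizontal lines part regulators, enzymes, class I and class II synthetases. The arrays of a mouse resemble each other, with many synthetases and enzymes red in mouse A and blue in mouse B, and Nupr1 the strongest row.

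Mice A and D were each the highest animal for 16 of the 35 members, B for 2 and C for 1. These counts use the brightest probe sets. Among the 21 genes with more than 1 probe set above the filter, the highest mouse differed between probe sets in 4 and the lowest in 7. In mouse A, against the mean of the other mice, 15 members were higher (42.9%, beside 18.1% of genes) and 5 were lower (14.3%, beside 12.7%). Those higher were Nupr1, Vldlr, Atf5 and Sesn2 among the regulators, Psph, Psat1 and Asns among the enzymes, and Lars, Eprs, Iars, Farsb, Nars, Tars, Farsa and Aars among the synthetases. The lower members were Atf4, Ddit3, Trib3, Ddit4 and Sars. In mouse B, 10 members were lower (28.6%, beside 2.96%), namely Psph, Psat1, Asns, Phgdh, Farsb, Lars, Tars, Nars, Iars and Nupr1, and only Atf5 was higher (2.86%, beside 6.3%).

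Mouse C had 6 lower members (17.1%, beside 5.35%), Wars, Lars, Eprs, Aars, Vldlr and Atf5, and no higher one (beside 3.09%). Mouse D had 6 higher members (17.1%, beside 4.56%), Trib3, Ddit3, Shmt2, Wars, Aars and Gars, and 3 lower ones (8.57%, beside 4.09%), Nupr1, Atf5 and Vldlr. These 4 comparisons share their arrays and stand side by side only. Counts for mice B, C and D depend on which other mice they are set against. Without mouse A, mouse B had 4 lower members and mouse C 2. Without mouse B, mouse C had 19 lower members and mouse D 10 higher ones. Calling moved over all genes too: the share passing the F test was 29.3% with all mice, 7.2% without mouse A, 44.4% without mouse B and 20.3% without mouse D. Without mouse D, mouse A had 2 lower members, and without mouse A, mouse D had no lower one. For these counts with a mouse left out, the share of all genes called in the same contrast was not counted. They therefore have no background beside them.

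**Figure D4:**
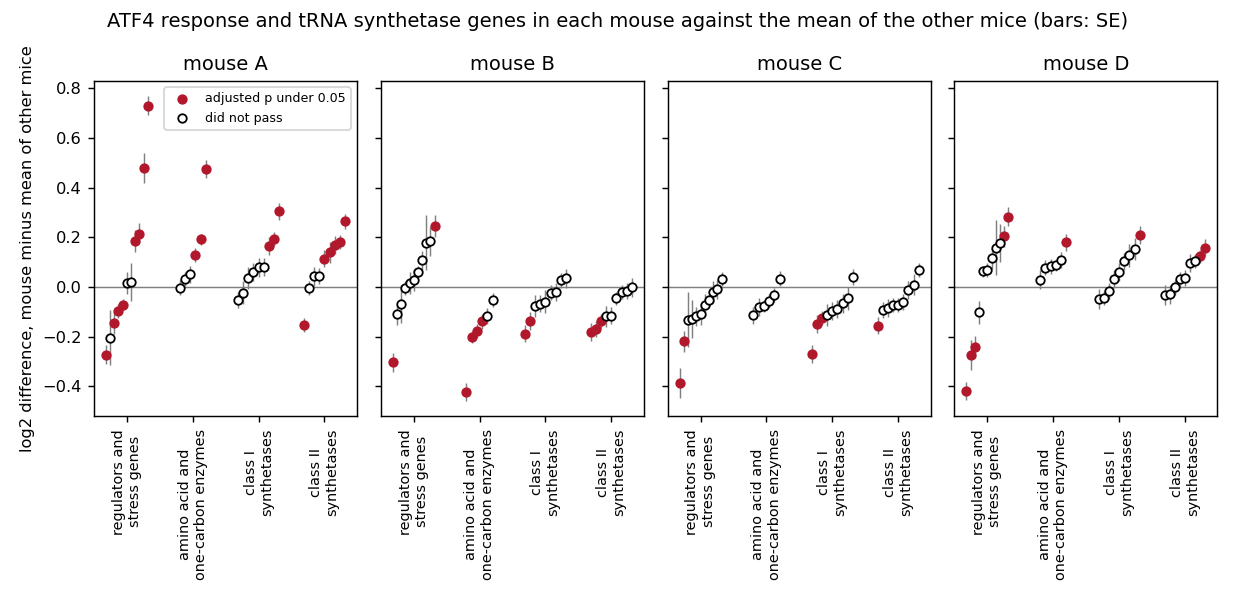
Log2 difference of each gene in a mouse from the mean of the other 3 mice (vertical axis, bars SE), with a panel for each mouse and genes grouped by role and sorted within the group. Filled points passed limma's adjusted p of 0.05; the enzymes and synthetases lie mainly above 0 in mouse A and below 0 in mouse B.

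Nupr1, a small stress-induced chromatin protein, differed most. It read 10.50 and 10.52 in mouse A, 9.74 and 9.73 in B, 9.96 and 9.95 in C, and 9.66 and 9.64 in D, with overexpressing and depleted targets in that order. Both arrays of mouse A stood above all others, and the mice did not overlap. Mouse A exceeded the mean of the others by 0.73 (SE 0.038), which is 1.66-fold (limma's adjusted p 2.01e-06). Its probe set, like those shown for Trib3, Phgdh, Shmt2, Vldlr and Wars, is of a type that may share sequence with other transcripts.

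Vldlr, given above, was 1.39-fold higher in mouse A than in the mean of the others (0.48, SE 0.060, adjusted p 0.000414). Trib3 was highest in mouse D, at 0.28 above the other mice (SE 0.038, adjusted p 0.00236), and lowest in mouse A. Its other probe set was also highest in mouse D but lowest in mouse C, at -0.25, against -0.14 in mouse A. Atf5, a relative of ATF4 that is controlled at translation in the same way, read 11.48 and 11.38 in mouse A, 11.40 and 11.51 in B, 11.12 and 11.10 in C, and 11.12 and 11.06 in D. Mice A and B lay above C and D on every array. Its strongest contrast was mouse B, at 0.25 above the others (SE 0.043, adjusted p 0.00867). Ddit3 was 0.20 higher in mouse D (SE 0.044, adjusted p 0.0222), and Atf4 was 0.071 lower in mouse A (difference -0.071, SE 0.023, adjusted p 0.0415), less than Trib3 or Nupr1 differed. Against Trib3 that ranking holds for the brightest Atf4 probe set only: the dimmer one gave -0.30 in mouse A, where Trib3 stood at -0.27. Nupr1, at 0.73 in mouse A, differed more than either Atf4 probe set.

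Psph, the phosphatase that completes serine synthesis, was the most variable enzyme. It read 10.86 and 10.88 in mouse A, 10.24 and 10.15 in B, 10.47 and 10.43 in C, and 10.54 and 10.53 in D. No mice overlapped, and mouse A exceeded the others by 0.47 (SE 0.037, 1.39-fold, adjusted p 2.32e-05). Psat1, one step earlier in the pathway, had the same order of mice and was -0.20 in mouse B relative to the others (SE 0.023, adjusted p 0.00105). Asns was likewise lowest in mouse B, at -0.18 (SE 0.028, adjusted p 0.00593). Mthfd2, the mitochondrial folate enzyme, did not pass the F test (adjusted p 0.101).

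Lars, leucyl-tRNA synthetase, read 11.73 and 11.78 in mouse A, 11.42 and 11.35 in B, 11.44 and 11.38 in C, and 11.59 and 11.51 in D. Mouse A was above all other arrays, by 0.30 over their mean (SE 0.034, 1.23-fold, adjusted p 0.000245). Farsb, the beta subunit of phenylalanyl-tRNA synthetase, read 11.48 and 11.46 in A, 11.18 and 11.11 in B, 11.21 and 11.19 in C, and 11.30 and 11.24 in D. It was 0.26 higher in mouse A (SE 0.031, adjusted p 0.000306). Farsa, the alpha subunit of that enzyme, was also higher in mouse A, by 0.14 (adjusted p 0.0314).

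Nars, asparaginyl-tRNA synthetase, read 12.44 and 12.35 in mouse A, 12.17 and 12.15 in B, 12.20 and 12.21 in C, and 12.28 and 12.28 in D, and it was 0.18 higher in mouse A (SE 0.028, adjusted p 0.00158). Eprs, which charges both glutamate and proline tRNAs, read 11.995 and 11.98 in A, 11.84 and 11.82 in B, 11.74 and 11.76 in C, and 11.84 and 11.78 in D. It too was higher in mouse A, by 0.19 (SE 0.029, adjusted p 0.00113), and on these probe sets both genes stood above all other arrays there. A dimmer Eprs probe set read 10.71 in mouse B with depleted targets, above both arrays of mouse A (10.67 and 10.45). Tars was lowest in mouse B, at -0.18 relative to the others (SE 0.036, adjusted p 0.0166).

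Wars, tryptophanyl-tRNA synthetase, which interferon also induces, had another order. It read 11.08 and 11.11 in mouse A, 11.05 and 10.99 in B, 10.81 and 10.85 in C, and 11.24 and 11.15 in D. Mouse C lay below all other arrays, at -0.27 relative to their mean (SE 0.037, adjusted p 0.00283). Sars, seryl-tRNA synthetase, went the other way from most synthetases and was -0.15 in mouse A (adjusted p 0.00337). Qars, Kars, Hars, Vars, Cars, Rars, Yars and Farsa did not pass the F test.

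Members with the promoter core passed the F test in 8 of 10 cases and those without it in 11 of 18, beside 29.3% of all genes. In mouse A, 6 of the 10 were higher and 1, Trib3, was lower. Of the 18 without the core 7 were higher and 4 lower in mouse A, beside 18.1% and 12.7% of all genes. In mouse B, 4 members of each kind were lower, beside 2.96% of all genes. These counts are descriptions of few genes and were not tested against each other.

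Further ATF4 targets, chiefly amino acid transporters and enzymes, were read from a second list of 28 genes, 20 of them tested. Between targets 14 were higher, 6 were lower and the median difference was 0.019; none was called by limma, and 1 had an unadjusted p under 0.05. That gene was Jdp2, a bZIP repressor, which was higher in all 4 mice with a mean difference of 0.13 (SE 0.044, unadjusted p 0.0142). Sqstm1, the autophagy receptor p62, followed at 0.044 (SE 0.020). Without mouse B, Slc38a2, a neutral amino acid transporter, was called, at 0.17 (limma's adjusted p 0.0442). Between mice, 16 of the 20 (80%, beside 29.3% of all genes) passed the F test. In mouse A 13 were higher and 1 lower (beside 18.1% and 12.7% of all genes), and in mouse C 11 were lower and none higher (beside 5.35% and 3.09%). Cth, cystathionine gamma-lyase of cysteine synthesis, was 0.58 higher in mouse A (adjusted p 3.45e-06), and Slc7a3, a cationic amino acid transporter, was 0.49 higher there (adjusted p 2.46e-05). Both thus had mouse A as their highest animal, as Nupr1, Psph and Lars did.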

How the data were processed

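The deposited values are log2 expression on Affymetrix 3′ arrays (22690 probe sets, range 3.602 to 15.24), 1 column per array; how the authors normalized them is not given in the sources used here. Array distributions at equal rank differed by at most 0.1667. Brightness depends on the probes, so levels were not compared between genes, and the number of arrays limits the precision. Of the probe sets, 20380 name 1 gene; the brightest per gene was kept, and those averaging below the 40th percentile of all probe sets (6.872) were left out, leaving 8003 genes. limma 3.58.1 (R 4.3.3; lmFit, eBayes with trend) fitted target and mouse, with Benjamini-Hochberg adjustment over all 8003 genes and a threshold of 0.05, two-sided; mice were compared by the F test and by contrasts with the mean of the other mice. The test was tried on simulated data. Pairing comes from the titles and design; deviations of the arrays of a mouse from the group means correlated at 0.824, 0.159, 0.61 and 0.635 in mice A to D. No other per-sample columns were used. The promoter sequence of 1 gene is not reported here.

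The members and all lists were chosen with earlier results of these data known. Every array is given for Atf4, Ddit3, Trib3, Asns, Psat1, Vldlr and Tars, for the 4 members with the smallest p between targets and for the 12 with the smallest p between mice, with the mouse contrast of the largest moderated t; from each other list of the pathway, not the cell type marker lists, the 2 genes with the smallest p in each comparison are named. Of 10 macrophage markers, Csf1r and Cd68 were tested, neither called between targets. Alternatives were scaling, the filter, probe set summary, limma's options, the threshold, the block, a tumour marker covariate and leaving out each mouse.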

Additional observations from a re-analysis of the deposited data

How the results depend on the processing

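Over all alternatives run, no more than 1 member was called between targets and 27 to 34 of 35 were higher; leaving out mice gave 0 to 1 called members, the 1 without mouse B. Mouse is the pairing factor: with no replicate block, 0 members were called, 29 were higher and the median was 0.024. Small target differences changed sign. For Nupr1 it was -0.013 with quantile normalization and -0.0031 to 0.014 leaving out mice; for Atf4 0.0063 with median centring, 0.0025 with the mean of probe sets, 0.0019 with array weights and -0.0084 to 0.0019 leaving out mice; for Atf5 -0.014 with the tumour covariate and -0.014 to 0.059 leaving out mice; for Wars -0.00067 to 0.041 leaving out mice; for Cebpb -0.000825 with the tumour covariate. Members differing between mice numbered 11 to 27 leaving out mice, beside 7.2% to 44.4% of all genes. Counts per mouse moved as follows, and the cause was not tested. The share of all genes called in the same contrast was not counted for these settings. Without the variance trend, mouse A had 2 lower, B 6 lower, C 2 lower and D 2 higher members. Quantile normalization gave 3 lower in C, median centring 2 higher in B, array weights 6 lower in B and 14 higher in D, and a threshold of 0.10 gave 2 higher in B, 9 lower in C and 10 higher in D. With the tumour covariate B had 4 higher, C 1 higher and 9 lower, and D 15 higher. The share of all genes passing the F test moved as well. It was 20.6% without the variance trend, 27.4% with quantile normalization and 32.2% with median centring. Array weights gave 37.4%, the threshold of 0.10 gave 40.9% and the tumour covariate gave 50%. Leaving out mice gave 2 to 5 lower in A, 0 to 2 higher and 4 to 12 lower in B, 0 to 1 higher and 2 to 19 lower in C, and 5 to 10 higher and 0 to 4 lower in D. Single mouse contrasts were rerun only for the 12 members with the smallest p of the F test, each in the mouse of its largest moderated t. These contrasts were picked from the same arrays, so their stability is no independent support. Of the 168 values, 166 kept sign and call. Atf5 in mouse B missed the threshold without mouse C or D (limma's adjusted p 0.0601 and 0.0626). The number of arrays limits the precision.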

Other observations

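Of 11 tested genes for eIF2 kinases, phosphatase subunits and the exchange factor eIF2B, 6 were higher and 5 lower with overexpressing targets, the median difference was 0.0098, none was called by limma and none had an unadjusted p under 0.05. Eif2b2, a subunit of eIF2B, had the largest difference, -0.077 (SE 0.038), and Ppp1r15a stood at -0.059 (SE 0.047). Between mice 3 of the 11 (27.3%, beside 29.3% of all genes) passed the F test. Ppp1r15a, the inducible subunit that directs a phosphatase to eIF2, read 10.22 and 10.39 in mouse A, 10.71 and 10.86 in B, 10.08 and 10.07 in C, and 9.97 and 9.89 in D. It was 0.68 higher in mouse B than in the mean of the others (adjusted p 0.0001), and so had another order of mice than Asns or Psph. Eif2ak3, the kinase PERK, was -0.31 in mouse A (adjusted p 0.00422).

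Mitochondrial tRNA synthetases had 8 tested genes, 5 higher and 3 lower between targets, none called by limma and none with an unadjusted p under 0.05. Pars2 stood at -0.10 (SE 0.054) and Sars2 at -0.11 (SE 0.064). Between mice 2 of 8 (25%, beside 29.3% of all genes) passed the F test: Tars2 was 0.23 higher in mouse A (adjusted p 0.00243), and Rars2 was -0.24 in mouse B (adjusted p 0.0104). By the contrast with the mean of the other mice, 4 of the 8 were called higher in mouse A, beside 18.1% of all genes. None was called lower there, beside 12.7%. Of 3 tested scaffold proteins of the synthetase complex, Eef1e1 alone passed the F test and was 0.27 higher in mouse A (adjusted p 0.000229). Aimp1 and Aimp2, at F test adjusted p of 0.0725 and 0.427, did not pass. Between targets Eef1e1 stood at 0.046 and Aimp2 at -0.025, neither called.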
